A study of Oryza sativa with 8 samples.

Results

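Chromosome 8 of rice was followed in 2 cultivars, Nip (Nipponbare, a japonica rice) and 93-11 (an indica rice). Its members were all bins of 50 kb with a compartment record and all topologically associating domains (TADs) that the deposited tables place on this chromosome, taken in each cultivar separately. It held 557 of the 7468 bins of Nip and 586 of the 7763 bins of 93-11, and its TADs numbered between 580 and 942 in a library. The chromosome had been picked because many of its bins changed compartment under heat stress (HS). Every count of switching and every HS-to-normal difference in compartment score is therefore given as a description. This also holds for the bins that a fit over all bins (limma) called below, since they come from the same contrast.

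The 8 Hi-C libraries came from the aerial parts of 3-week-old seedlings of both cultivars, with no transgene or mutation in any group. The HS seedlings (2 Nip libraries and 2 93-11 libraries) had been held at 45 °C for 36 h in humid air and weak light, and the normal seedlings (2 Nip libraries and 2 93-11 libraries) came from the growth condition without heat, for which a stronger light is given. Temperature, light and humidity thus cannot be told apart. The 2 cultivars have chromosome 8 of different length in the tables (27843053 bp in Nip and 29283865 bp in 93-11), so positions were not matched between them, and no genome build is named for either. The analysed tables hold no numbers of contacts, and the contact totals that the study lists for the libraries were not used here, so the spread between 2 replicates is the error given. By that list every HS library had fewer contacts within chromosomes than either normal library of its cultivar, so depth and condition cannot be told apart. Aerial parts mix many cell types, and a change in their proportions and a change within cells cannot be told apart in such libraries.

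Hi-C joins DNA ends that lie close together in the nucleus and counts the joined pairs. At the scale of whole chromosomes, active and gene-rich chromatin meets its own kind (compartment A) and so does inactive, repeat-rich chromatin (compartment B). A principal component of the contact map, PC1, gives each bin a score, positive for A and negative for B, and the size of the score says how firmly the bin sits on its side. At a finer scale, TADs are stretches whose DNA meets itself more often than its neighbours, and their ends are called boundaries. In plants, large gene-poor regions around the centromere usually lie in B and the distal arms in A.

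The map of chromosome 8 had a distal A block, a long B-rich middle and a mixed left arm in both cultivars (see the plot of PC1 along the chromosome). In Nip under normal conditions, 1 A compartment, unbroken in its scored bins, ran from 21900001 to 27700000, a length of 5800 kb with 804 annotated genes. The next longest A compartments of Nip, at 20350001 to 21600000 and at 100001 to 1150000, measured 1250 and 1050 kb. The longest B compartment of Nip, from 13300001 to 17500000, measured 4200 kb and held 350 genes. It followed a B compartment of 1250 kb at 11950001 to 13200000 with 42 genes, the poorest of the long ones, and was followed by one of 1150 kb at 17650001 to 18800000.

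In 93-11 the distal A compartment ran from 24250001 to 29150000, a length of 4900 kb with 734 genes, and the next 2 A compartments, at 2600001 to 3500000 and at 50001 to 800000, were 900 and 750 kb long. Its B middle was more divided, with compartments of 1950 kb (11950001 to 13900000, 40 genes), 1350 kb (15000001 to 16350000) and 1200 kb (19150001 to 20350000) as the longest. Along the chromosome the normal call changed 89 times in 93-11, or 3.04 times per Mb (the second highest density of the 12 chromosomes), and 60 times in Nip, or 2.15 per Mb. The maps of the 2 cultivars were called by the same procedure on different genomes, and this difference was not tested.

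**Figure D1:**
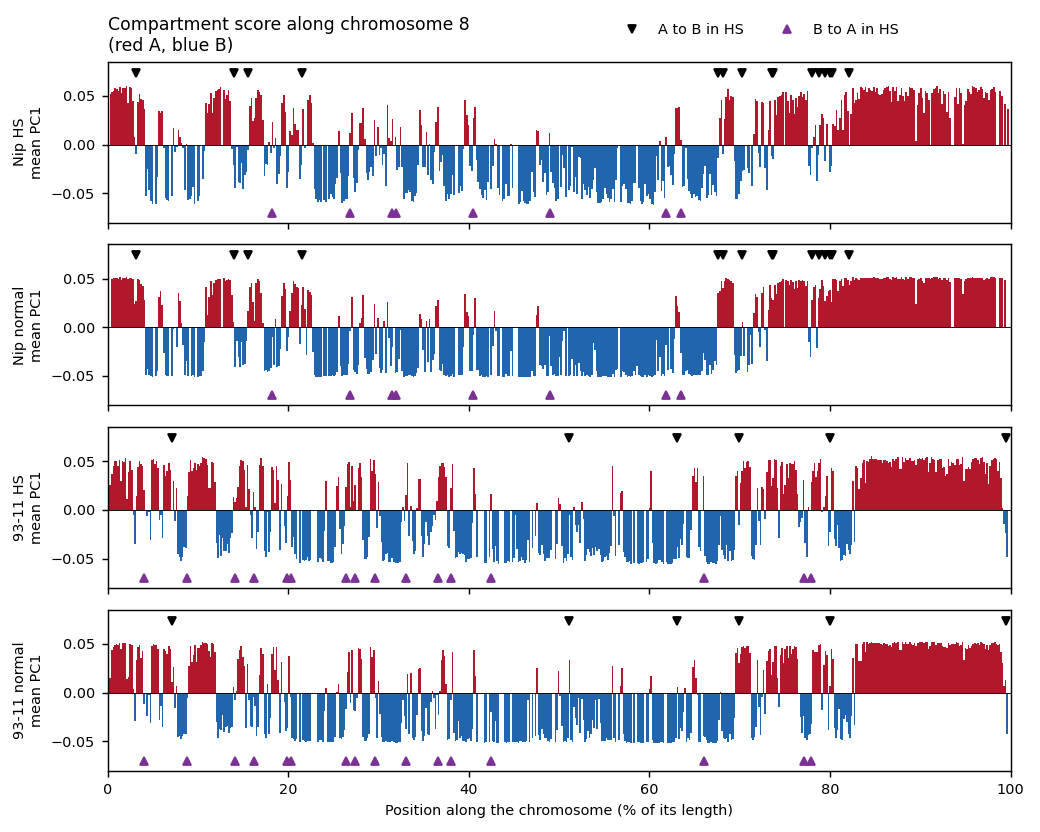
Mean PC1 of the 2 replicates in each 50-kb bin of chromosome 8 (y axis, red above 0 for A, blue below 0 for B) against the position as a percentage of the chromosome's length (x axis), for HS above normal in each cultivar. Triangles repeat the switching bins on both panels of a cultivar, 15 A to B and 8 B to A in Nip and 6 A to B and 16 B to A in 93-11, and the Nip A to B bins gather between 67.6% and 82.2% of the length, 11 of them in that stretch.

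The A side carried more genes. Counting bins with 1 call in both normal libraries, A bins of chromosome 8 averaged 6.63 annotated genes and B bins 4.06 in Nip, and 6.80 and 3.48 in 93-11. The chromosome as a whole had 2905 genes in Nip, or 104.3 per Mb against 110.5 on the other 11 chromosomes, and 2814 in 93-11, or 96.1 per Mb against 105.4. The gene number per bin was lowest just left of the middle of the chromosome, at 2.91 in Nip and 1.71 in 93-11 in interval 5 of 10 intervals of equal length (numbered from the left end), and highest in interval 10, at 7.41 in both.

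HS left this overall map in place. A bins made up 48.3% and 46.8% of the compared bins in the 2 Nip HS libraries, against 46.6% and 47.5% in the normal libraries, so the conditions overlapped. In 93-11 they made up 49.1% and 48.4% in HS, against 46.9% and 45.3% in normal, without overlap. The mean change in A share was 0.48 percentage points in Nip and 2.62 percentage points in 93-11. When PC1 was centred on its median over the chromosome in each library, the changes turned to -0.095 and -0.090 percentage points.

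Bin by bin, the correlation of PC1 between HS and normal libraries on chromosome 8 averaged 0.936 in Nip (4 pairs, 0.935 to 0.938) and 0.947 in 93-11 (0.944 to 0.950). Both averages were the lowest of the 12 chromosomes. They are described over 524 and 554 bins, which share libraries and neighbours. HS replicates correlated at 0.977 in Nip and 0.987 in 93-11, and normal replicates at 0.993 in both. The mean absolute difference between the HS mean and the normal mean of a bin was 0.237 SD of the chromosome's PC1 in Nip and 0.187 SD in 93-11. Each was the largest of the 12 chromosomes. The replicates themselves differed on average by 0.148 SD in HS and 0.062 SD in normal in Nip, and by 0.100 SD in HS and 0.068 SD in normal in 93-11.

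The HS replicates of this chromosome also disagreed with each other more often than elsewhere. In Nip, 6.87% of the compared bins of chromosome 8 had opposite calls in the 2 HS libraries, against 2.90% on the other 11 chromosomes, while normal replicates disagreed at 1.72% and 1.93%. In 93-11 the HS replicates disagreed at 4.33% of bins on chromosome 8, against 2.51% elsewhere, and the normal replicates at 3.43% on chromosome 8, against 1.80% elsewhere. Between an HS and a normal library the calls differed at 7.25% to 8.97% of bins in Nip and 6.68% to 7.94% in 93-11, against 4.05% to 4.22% and 4.11% to 4.70% on the other chromosomes. In the calls of Nip the HS replicates were thus nearly as far apart as HS and normal libraries, although in the scores themselves they were closer (correlation 0.977, against 0.935 to 0.938).

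A bin was counted as switching when both normal libraries shared a call and both HS libraries had the other. In Nip, 15 bins of chromosome 8 left A for B and 8 left B for A, or 4.39% of the compared bins, where 2.09% of all bins of the genome switched (1.04% A to B and 1.05% B to A). In 93-11, 6 bins left A for B and 16 left B for A, or 3.97%, where 2.50% of all bins switched (0.793% A to B and 1.71% B to A). Chromosome 8 had the highest share of the 12 in Nip and came after chromosomes 10 and 11 in 93-11. Since the chromosome was picked on this count, nothing further is read from its rank. Another 40 bins in Nip and 36 in 93-11 had replicates that disagreed, 36 and 24 of them with opposite calls in the 2 HS libraries.

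**Figure D2:**
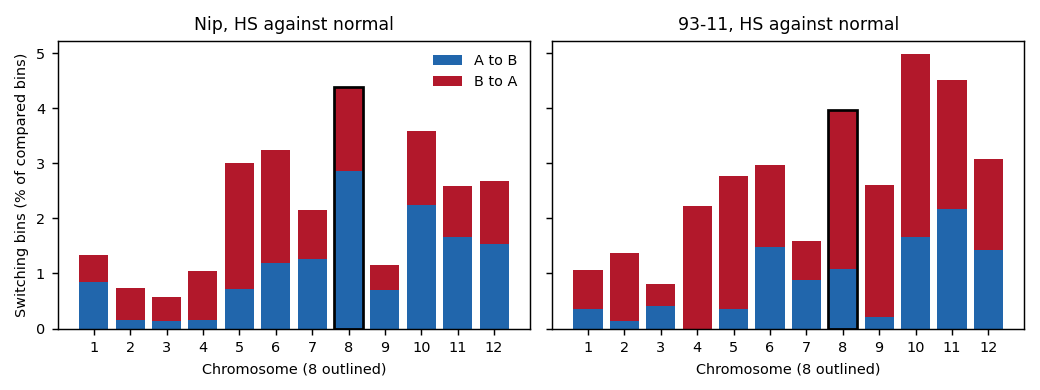
Share of compared 50-kb bins (y axis, percent) that switched to B (blue) or to A (red) in HS against normal on each of the 12 chromosomes (x axis), in Nip and 93-11. Chromosome 8, outlined, reached 4.39% in Nip, the highest bar, and 3.97% in 93-11, below chromosomes 10 and 11.

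The count depends on the libraries used. With HS replicate 1 or HS replicate 2 left out, Nip had 36 or 41 switching bins, and without a normal replicate 23 or 27. In 93-11 the count was between 27 and 31 without 1 library at a time. Centring each library on the median of the chromosome left the total at 22 in Nip and 21 in 93-11 but changed the split in 93-11 to 11 A to B and 10 B to A. When every library had to lie at least 0.25 SD from 0, 6 bins in Nip (5 A to B) and 7 in 93-11 (6 B to A) were left.

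In each cultivar, most switches of 1 direction lay in a stretch of the chromosome that was picked after the pattern was seen. In Nip, 11 of the 15 A to B bins lay in intervals 7 to 9, between 16700001 and 25050000, which held 44.6% of the bins that were A in both normal libraries. That number ranged from 10 to 12 under centring, under calls from the replicate mean and without 1 library at a time, alternatives chosen after the pattern was seen. Its 8 B to A bins were scattered between 5050001 and 17700000. None lay in intervals 8 to 10, where 75.0%, 100% and 100% of the compared bins were A in normal. Intervals 9 and 10 thus had no B bin that could switch. In 93-11, 13 of the 16 B to A bins lay in intervals 1 to 5, up to 14650000, which held 57.4% of the bins that were B in both normal libraries. This number was 7 of 10 (70%) with centred scores and 21 of 30 (70%) with calls from the replicate mean, closer to that share. The 6 A to B bins of 93-11 were single bins between intervals 1 and 10.

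Average scores moved with the same layout. In interval 4 of Nip (8350001 to 11150000), mean PC1 was -0.0193 and -0.0192 in the HS libraries, against -0.0298 and -0.0302 in the normal libraries. All of its HS values lay above the normal ones, with 37 bins higher and 15 lower in HS, and its A share was 27.4% in HS, against 19.8% in normal. In interval 8 of Nip (19500001 to 22250000), mean PC1 was lower in HS, at 0.0163 and 0.0172, against 0.0232 and 0.0231 in normal, and the A share was 63.5% in HS and 75.0% in normal. The changes came to 0.25 SD in interval 4 and -0.15 SD in interval 8. At the same relative place the other 11 chromosomes had changes of -0.057 to 0.154 SD and -0.116 to 0.088 SD, so chromosome 8 lay outside their range at both places. The chromosome was picked on this contrast and the intervals after their values were seen, so these ranges are a description.

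Interval 9 of Nip, within the distal A block, was lower too on average, although 33 of its bins were higher and 20 lower in HS. Its mean PC1 was 0.0450 and 0.0447 in HS, against 0.0487 in both normal libraries, and 94.6% of its bins were A in HS, against all of them in normal. Its change of -0.089 SD lay within the range of the other chromosomes (-0.132 to 0.060 SD). Interval 10 differed little, with a change of 0.015 SD. The lower means thus lay in intervals 8 and 9 and not at the end of the distal A block. Interval 8 (19500001 to 22250000) lay mostly before the start of this block at 21900001.

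In 93-11 the higher scores lay in intervals 3 and 4 (5850001 to 11700000). Mean PC1 of interval 3 was -0.0127 and -0.0134 in HS, against -0.0225 and -0.0219 in normal, and that of interval 4 -0.0186 and -0.0201 in HS, against -0.0282 and -0.0270 in normal. The changes were 0.22 SD in interval 3 and 0.19 SD in interval 4, where interval 4 lay above the range of the other chromosomes (-0.043 to 0.113 SD) and interval 3 within it (-0.083 to 0.310 SD). Interval 10 of 93-11 was lower, at 0.0419 and 0.0432 in HS, against 0.0458 and 0.0453 in normal, a change of -0.071 SD within the range of the other chromosomes (-0.092 to 0.059 SD). Interval 4 thus had a higher mean in HS in each cultivar, though positions were not matched between them. A mean below the range of the other chromosomes was seen in interval 8 of Nip alone. Whether the cultivars differ in this was not tested.

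**Figure D3:**
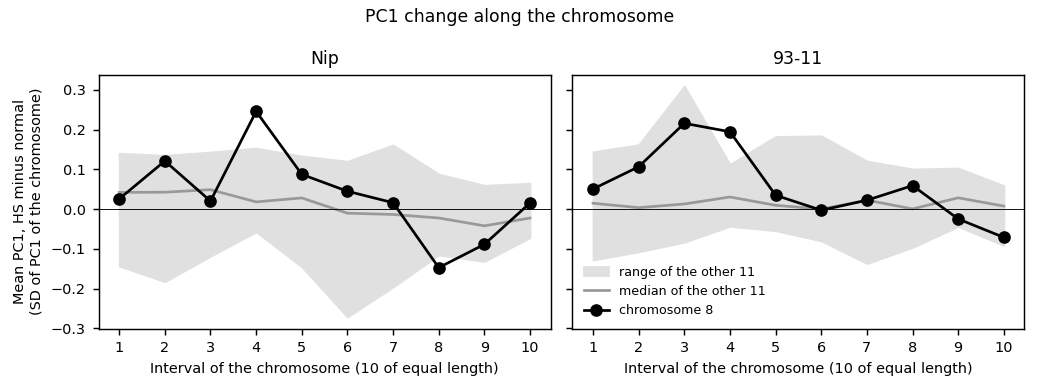
Mean change in PC1, HS minus normal, in SD of PC1 over the chromosome (y axis) for each of 10 intervals of equal length along the chromosome (x axis). Black points are chromosome 8, and the grey line and band are the median and the range of the other 11 chromosomes. Chromosome 8 of Nip reached 0.25 SD in interval 4 and -0.15 SD in interval 8, both outside the band, and chromosome 8 of 93-11 0.19 SD in interval 4, above the band.

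The 2 longest runs of switching bins were both A to B in Nip, with 2 adjacent bins each. The run at 22250001 to 22350000, with 9 annotated genes, had mean PC1 of -0.024 and -0.027 in HS, against 0.032 and 0.033 in normal. The run at 20450001 to 20550000, with 7 genes, had -0.013 and -0.014 in HS, against 0.031 and 0.027 in normal. In both, each HS library lay well below 0 and each normal library well above it. Several bins around the first run were also lower in HS, with stable A bins among them. Single A to B bins lay at 21700001, 21900001, 22100001 and 22850001, and the bin at 22400001 to 22450000 stayed in A with 0.021 and 0.018 in HS, against 0.049 and 0.050 in normal.

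Among the single A to B bins of Nip, 18800001 to 18850000 (8 genes) had -0.013 and -0.014 in HS, against 0.035 in both normal libraries. This bin was the first of an A compartment, next to stable B. The bin at 18950001 to 19000000 (3 genes), within the same compartment, had -0.003 and -0.017 in HS, against 0.040 and 0.041 in normal. At 22850001 to 22900000 (4 genes), the scores were -0.001 and -0.002 in HS, against 0.041 and 0.046 in normal. The HS libraries there sat barely below 0, so the call rests on a small margin while the drop itself was wide. Farther up the left arm, 5950001 to 6000000 (5 genes) had -0.019 and -0.023 in HS, against 0.016 and 0.029 in normal.

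The B to A bins of Nip changed less on average, by 0.75 SD, against -0.95 SD in its A to B bins. Their widest gap between the nearest HS and normal libraries was 0.051, against 0.048 at the widest single A to B bin. It was at 8850001 to 8900000 (2 genes), with 0.004 and 0.011 in HS, against -0.047 in both normal libraries. A bin apart, 8750001 to 8800000 (2 genes) had 0.032 and 0.021 in HS, against -0.025 and -0.015 in normal. At 5050001 to 5100000 (5 genes) the scores were 0.021 and 0.025 in HS, against -0.005 and -0.014 in normal. The bin at 17200001 to 17250000 (5 genes) had 0.009 and 0.007 in HS, against -0.020 and -0.017 in normal, and lay between stable B bins.

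In 93-11 no 2 switching bins were adjacent. The widest switch of the chromosome in either cultivar was the B to A bin at 19300001 to 19350000 (4 genes), with 0.038 and 0.032 in HS, against -0.045 and -0.044 in normal. It stood inside the B compartment of 1200 kb described above. The bin at 22800001 to 22850000 (6 genes), at the border of an A compartment, had 0.031 and 0.027 in HS, against -0.035 and -0.030 in normal. Nearby, 22550001 to 22600000 (5 genes) had 0.032 and 0.029 in HS, against -0.029 and -0.019 in normal. Both had scores well away from 0 in all 4 libraries. In the left arm, 10700001 to 10750000 (4 genes) had 0.035 and 0.032 in HS, against -0.026 and -0.019 in normal.

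The A to B bins of 93-11 were 6. At 20450001 to 20500000 (5 genes), between stable A bins, the scores were -0.014 and -0.016 in HS, against 0.026 and 0.034 in normal. At 18450001 to 18500000 (5 genes), a lone A bin within B, they were -0.036 and -0.040 in HS, against 0.006 and 0.005 in normal. Another lone A bin, 14950001 to 15000000 (5 genes), had -0.006 and -0.005 in HS, against 0.032 and 0.035 in normal. Near the chromosome end, 29100001 to 29150000 (10 genes, the most of any switching bin in 93-11) had -0.022 and -0.026 in HS, against 0.015 and 0.010 in normal. The narrowest of the 6 was 2050001 to 2100000, with -0.001 and 0 in HS, against 0.014 and 0.008 in normal.

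Switching bins tended to sit at the border between compartments. In Nip, 10 of 23 switching bins (43.5%) were next to a bin of the other call in normal, against 78 of 461 stable bins (16.9%), and in 93-11 it was 14 of 22 (63.6%), against 104 of 496 stable bins. On the other 11 chromosomes the shares were 48.4% against 9.44% in Nip and 52.8% against 9.85% in 93-11. Switching bins also started closer to 0, with a median absolute PC1 in normal of 0.60 SD in Nip and 0.35 SD in 93-11, against 1.13 and 1.12 SD in stable bins. A call that starts near 0 needs a smaller change to cross it, so these values describe the rule as well as the bins.

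The switching bins held few genes in all. The 15 A to B bins of Nip carried 81 annotated genes (5.40 a bin, 1 to 11) and its 8 B to A bins 32 (4.00 a bin, 2 to 6), against 6.72 a bin in stable A and 3.94 in stable B. In 93-11 the 6 A to B bins carried 37 genes (6.17 a bin, 5 to 10) and the 16 B to A bins 74 (4.63 a bin, 0 to 8), against 6.80 in stable A and 3.38 in stable B. Each switching group thus fell between the stable groups in mean gene number. The gene names at these positions were not used here.

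Scores also changed in bins that kept their side. In a limma fit over all bins of each cultivar (HS against normal, Benjamini-Hochberg adjusted p under 0.05), 21 bins of chromosome 8 were called higher and 28 lower in HS in Nip, where 1.83% and 1.93% of all bins were called, and 29 higher and 13 lower in 93-11, where 1.93% and 0.847% were. The rule that picked the chromosome used this contrast, so the counts are a description, and with 2 libraries a group they changed strongly with the settings. Fits without 1 library called between 0 and 41 bins in either direction in Nip and between 0 and 10 in 93-11. Of the calls in Nip, 11 of 21 higher and 14 of 28 lower were in stable B, and 3 and 3 in stable A. Stable B and stable A held 242 and 219 of its 524 compared bins. On the other 11 chromosomes of Nip, 63 of 108 higher and 35 of 108 lower calls were in stable B, and 28 and 56 in stable A. In 93-11, 11 of 29 higher and 6 of 13 lower calls of chromosome 8 were in stable B, and 8 and 3 in stable A. There stable B and stable A held 262 and 234 of 554 compared bins.

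Among bins that did not switch, the one with the smallest limma p in Nip was a stable B bin at 15700001 to 15750000 (4 genes), in the longest B compartment, with -0.003 and -0.005 in HS, against -0.042 and -0.043 in normal. In 93-11 the bin at 13200001 to 13250000 (1 gene) likewise came near 0 without crossing it, with -0.004 and -0.007 in HS, against -0.051 in both normal libraries. Other bins moved deeper into their own side. In Nip the bin at 16800001 to 16850000 (5 genes) had -0.062 in both HS libraries, against -0.051 and -0.050 in normal, and in 93-11 the A bin at 7750001 to 7800000 (8 genes) had 0.048 and 0.047 in HS, against 0.021 in both normal libraries.

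The average scores of stable bins moved little, though opposite moves cancel in an average. In Nip, 148 stable A bins were higher and 66 lower in HS, and 113 stable B bins higher and 126 lower. For 93-11 these counts were 129 and 90 in stable A and 110 and 140 in stable B. Stable A bins of Nip averaged 0.0447 ± 0.00018 in HS and 0.0436 ± 0.000077 in normal, and stable B bins -0.0426 ± 0.000056 in HS and -0.0443 ± 0.00015 in normal (SD, n = 2 libraries each). In 93-11, stable A bins averaged 0.0431 ± 0.00024 in HS and 0.0423 ± 0.00017 in normal, and stable B bins -0.0421 ± 0.00010 in HS and -0.0435 ± 0.00025 in normal. These differences of averages are up to 0.039 SD of the chromosome's PC1. The A to B bins of Nip averaged -0.95 SD and its B to A bins 0.75 SD, but bins of a switching class all move 1 way by definition. In 93-11 the A to B bins averaged -0.81 SD and the B to A bins 1.00 SD. The range of the scores was wider in HS in Nip, from -0.062 to 0.062 over the 2 HS libraries, against -0.052 to 0.052 in normal.

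TADs did not enter the choice of the chromosome. Their tables list nested domains, the outermost at level 0, with ends at steps of 5 kb. Nip chromosome 8 had 942 and 823 TADs in the HS libraries, against 580 and 651 in the normal libraries, and both HS values lay above both normal values. The means were 882.5 ± 84.1 in HS and 615.5 ± 50.2 in normal (SD, n = 2 libraries each), a difference of 267 (exact two-sided permutation test over libraries, p = 0.33, the smallest that the 6 relabellings of a cultivar allow). In 93-11 there were 622 and 837 in HS, against 620 and 628 in normal. HS replicate 1 of 93-11 thus stood within the normal values, and the difference of 105.5 (exact permutation p = 0.67) rests on HS replicate 2, without which it was -2.

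The listed TADs were shorter in HS. Median TAD size on chromosome 8 was 35 and 45 kb in Nip HS, against 75 and 65 kb in normal, and 70 and 45 kb in 93-11 HS, against 77.5 and 75 kb in normal. The differences were -30 kb and -18.75 kb (exact permutation p = 0.33 in each cultivar, the smallest possible), and that of 93-11 was -6.25 kb without HS replicate 2 and -31.25 kb without HS replicate 1. Over both cultivars, labels permuted within cultivar, the mean difference of -24.4 kb had an exact permutation p of 0.056, also the smallest possible. TADs of 25 to 40 kb made up 58.0% and 45.9% of all in Nip HS, against 21.2% and 26.6% in normal. In 93-11 they made up 26.2% and 46.6% in HS, against 21.1% and 22.5% in normal. Counting TADs of at least 50 kb alone, chromosome 8 had fewer in HS, by a difference of -51 in Nip and -40 in 93-11.

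The TADs also left more of the chromosome uncovered in HS. Outermost TADs covered 86.2% and 89.9% of chromosome 8 in Nip HS, against 98.0% and 97.3% in normal, and 94.2% and 86.8% in 93-11 HS, against 98.3% and 97.8% in normal. The longest TAD of the chromosome measured 285 and 415 kb in Nip HS, against 610 and 620 kb in normal. In 93-11 it measured 640 and 335 kb in HS, against 630 and 645 kb in normal. In each of these measures the 2 Nip HS libraries lay apart from the normal ones, while in 93-11 HS replicate 1 lay nearer to the normal libraries than HS replicate 2 did.

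**Figure D4:**
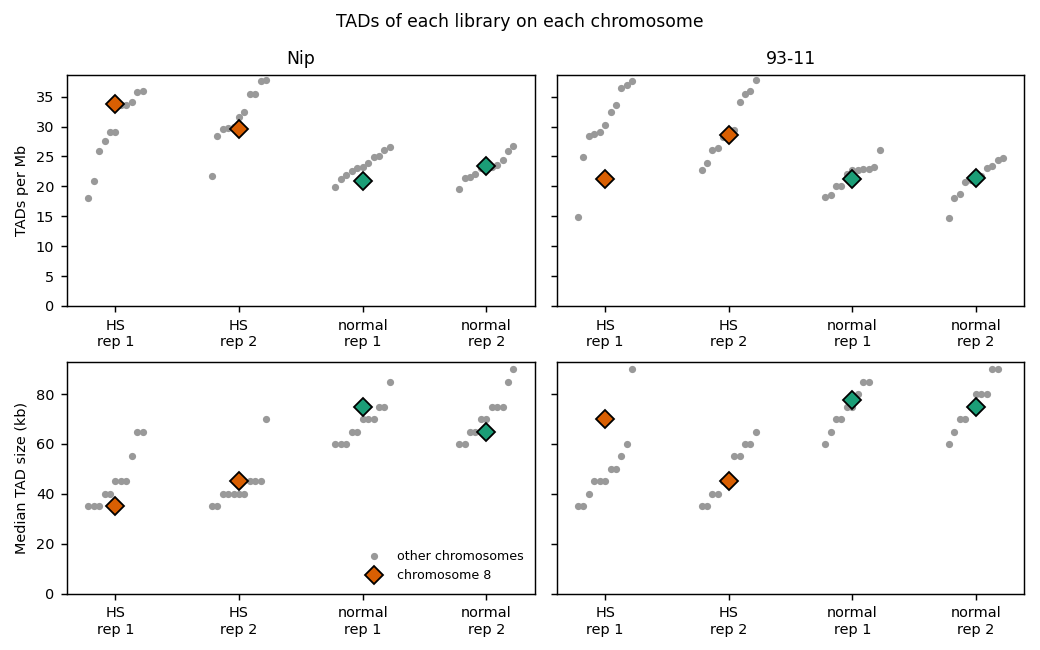
TADs per Mb (upper panels) and median TAD size in kb (lower panels) of each library, HS left of normal, in Nip and 93-11. Diamonds are chromosome 8 (orange in HS, green in normal) and grey points the other 11 chromosomes. In 93-11 HS replicate 1, chromosome 8 had 21.2 TADs per Mb, above chromosome 10 alone at 14.9, and a median of 70 kb. In every library chromosome 8 lay within the spread of the rest.

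Set against the rest of the genome, no separate change in TAD number was shown for chromosome 8, though within a cultivar no p under 0.33 was possible. TADs per Mb were 33.8 and 29.6 in Nip HS, against 20.8 and 23.4 in normal, and on the other 11 chromosomes 29.9 and 32.1 in HS, against 23.7 and 23.3 in normal. The log2 ratio of chromosome 8 to the others changed by 0.12 in Nip (exact permutation p = 0.67), turning to -0.03 without HS replicate 1. In 93-11 it changed by -0.28 (exact permutation p = 0.33, the smallest possible), with -0.056 without HS replicate 1 and -0.505 without HS replicate 2. Both HS ratios of 93-11, -0.534 and -0.085, lay below both normal ratios, -0.059 and 0.0004. Over both cultivars the exact permutation p was 0.67, and 0.22 for the difference between the cultivars. In 93-11 HS replicate 1, chromosome 8 had 21.2 TADs per Mb and ranked eleventh of 12, where its other 11 chromosomes had 30.8 per Mb as a whole and chromosome 10 the fewest at 14.9. Other HS libraries held chromosomes with as few, such as chromosome 11 at 18.0 per Mb in Nip HS replicate 1.

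More TADs were called all along the chromosome in Nip, with ratios of HS to normal between 1.26 in interval 10 and 1.66 in interval 6, where the longest B compartment lies. In stable B bins there were 31.7 ± 2.6 TADs per Mb in HS and 21.7 ± 2.5 in normal, and in stable A bins 32.9 ± 2.7 in HS and 23.2 ± 1.4 in normal (SD, n = 2 libraries each), each TAD counted at its centre. The ratios of HS to normal in Nip were 1.46 in stable B and 1.42 in stable A. In 93-11 stable B bins held 254 and 369 TADs in HS, against 260 and 249 in normal, and stable A bins 281 and 362 in HS, against 257 and 272 in normal, so in stable B HS replicate 2 alone lay above the normal libraries. The A to B bins of Nip held 24.5 ± 7.8 TAD centres in HS and 15.5 ± 0.71 in normal, too few for a comparison with the stable bins.

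Boundaries were followed at a tolerance of 5 kb. Of the 303 boundaries that both Nip normal libraries shared on chromosome 8, 36 were in neither HS library (11.9%, against 13.9% on the other 11 chromosomes), and of the 448 that both HS libraries shared, 154 were in neither normal library (34.4%, against 34.7%). In 93-11, 60 of 265 were lost (22.6%, against 18.7%) and 105 of 274 were gained (38.3%, against 41.9%). The shares on chromosome 8 were thus near those of the rest. Gained boundaries outnumbered lost ones in both cultivars at this tolerance. When the same position was required, Nip had 61 lost and 132 gained and 93-11 had 85 lost and 74 gained, so in 93-11 the order turned.

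Boundaries that changed lay more often in B than boundaries that stayed. Among those in stable bins of Nip, 17 of the 26 lost (65.4%) and 77 of the 129 gained (59.7%) were in B, against 50 of the 154 kept (32.5%). In 93-11, 51.1% of the lost and 52.1% of the gained were in B, against 35.0% of the kept. Of all stable bins of chromosome 8, 242 of 461 in Nip and 262 of 496 in 93-11 were B. The lost and gained boundaries of 93-11 were near that share, and the kept ones of both cultivars below it. These shares were not tested. Switching bins made up 4.39% of the compared bins in Nip and 3.97% in 93-11, and the counts of changed boundaries in them were likewise small. In Nip, 7 of the 154 gained and 1 of the 36 lost boundaries lay in A to B bins and none in B to A bins. For 93-11, 2 of the 105 gained and 2 of the 60 lost lay in B to A bins and none in A to B bins.

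Of whole TADs on chromosome 8, 28.1% to 37.3% of those in a Nip normal library were found in a Nip HS library at 80% reciprocal overlap, and 25.5% to 27.6% in 93-11. The 2 HS replicates shared 30.3% and 34.5% of their TADs in Nip and 26.2% and 19.7% in 93-11, and the normal replicates 55.2% and 48.8% in Nip and 45.2% and 43.9% in 93-11. Of the TADs of an HS library, 17.2% to 29.0% were found in a normal library in Nip and 19.8% to 26.7% in 93-11. Counting the TADs of an HS library, the HS replicates of Nip were thus more like each other than like the normal libraries. Counting normal TADs found in an HS library, the Nip shares (28.1% to 37.3%) overlapped those of the HS replicates. In 93-11 the shares overlapped in both directions. On the other 11 chromosomes the averages were 31.7% and 26.6% for HS replicates and 52.1% and 47.8% for normal replicates, in Nip and 93-11.

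The A to B run of Nip at 22250001 to 22350000 showed compartment and TAD records side by side. In HS, 2 outermost TADs in replicate 1 and 3 in replicate 2 overlapped the run, the longest of 120 and 115 kb. In normal, a single outermost TAD of 335 kb (22020000 to 22355000) in replicate 1 and of 325 kb (22025000 to 22350000) in replicate 2 spanned it. The run held 3 and 4 boundaries in the HS libraries, against 0 and 3 in the normal libraries. The outermost domain was thus shorter in both HS replicates, while the number of boundaries in the run overlapped between conditions.

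**Figure D5:**
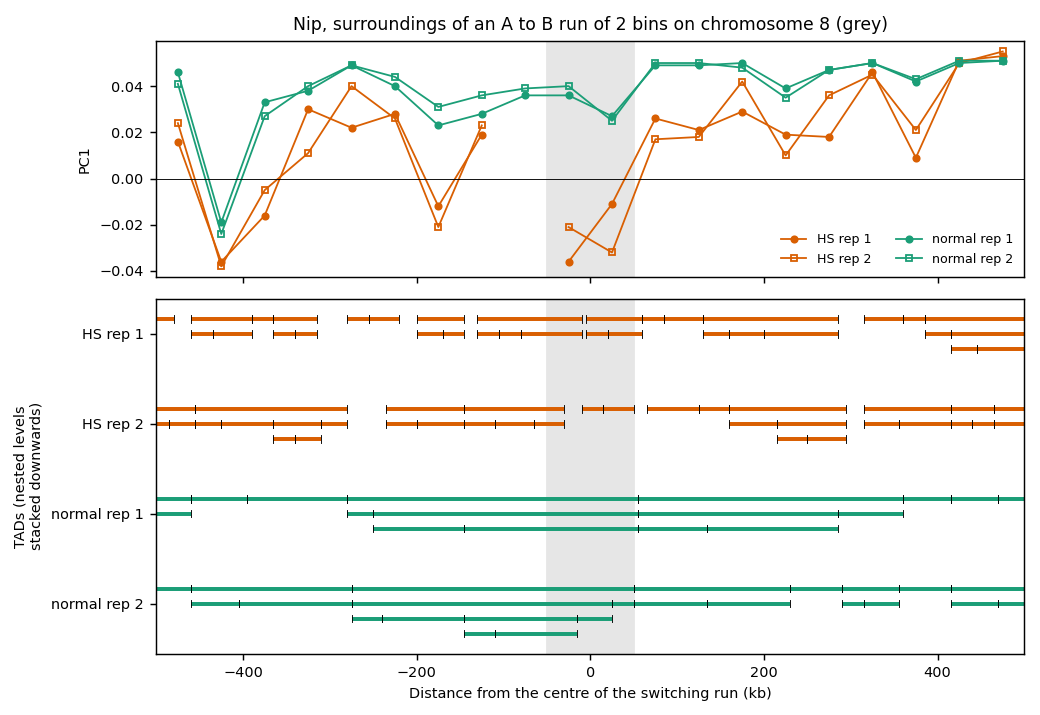
PC1 (upper panel, y axis) and TADs (lower panel, 1 line per TAD with nested levels stacked downwards and end ticks) of the 4 Nip libraries, HS above normal, against the distance in kb from the centre of the A to B run of 2 bins (grey). PC1 falls below 0 in the run in both HS libraries and stays above 0 in both normal libraries, and the longest outermost TAD at the run measured 120 and 115 kb in HS, against 335 and 325 kb in normal.

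At the other named switches the longest outermost TAD was more often shorter than longer in both HS libraries, with exceptions. At the widest 93-11 switch, 19300001 to 19350000, the outermost TAD measured 95 and 90 kb in HS, from 19260000 and 19265000 to 19355000, against lengths of up to 565 and 500 kb in the normal replicates. At the B to A bin 22800001 to 22850000 the outermost TAD measured 120 and 115 kb in HS, against 420 and 425 kb in normal. In Nip the longest one at 17200001 to 17250000 measured 145 and 105 kb in HS, against 465 and 460 kb in normal. That at 18800001 to 18850000 measured 100 and 115 kb in HS, against 330 kb in both normal libraries. The Nip B to A bins on either side of 8800000, in contrast, lay in an outermost TAD of 150 kb in all 4 libraries. Only at the 93-11 A to B bin 18450001 to 18500000, among the named switches, was the outermost TAD longer in both HS libraries. It measured 330 and 265 kb in HS, against 155 and 235 kb in normal. At the Nip A to B bin 5950001 to 6000000 it measured 245 and 220 kb in HS, against 195 and 230 kb in normal, with overlap. Over the whole chromosome the median outermost TAD was 55 and 70 kb in Nip HS, against 120 and 90 kb in normal, and 107.5 and 70 kb in 93-11 HS, against 112.5 and 90 kb in normal, so the change in length was not limited to the switching bins.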

How the data were processed

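Hi-C libraries were made with Dpn II from aerial parts of seedlings, 8 in all. The submitters' processing notes list cutadapt 1.0, BWA and HiC-Pro 2.8.1, and the methods name HOMER for compartments and HiC-Explorer for TADs. The bins in the tables are smaller than the methods state and the TADs are nested, so it is not settled which tool and settings made these tables, nor whether the settings were the same for every chromosome. Genome builds are not given in the sources used here, and the study's contact numbers were not used here. The deposited tables held a PC1 score per 50-kb bin, rounded by the authors to 3 decimals, the A or B call, the annotated gene count per bin, and a level score for each nested TAD. The squares of PC1 sum to 1 over a chromosome, so chromosomes were compared in SD of PC1. The replicates are called biological in the methods, so the tests measure the spread between 2 libraries a group.

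Members, lists and named regions were chosen with earlier results of these data known. Named regions were runs of 2 or more switching bins, the 4 widest switches per cultivar and direction, bins with the smallest limma p that did not switch, and the 3 longest compartments of each kind. Gene names were not used here, since no annotation of these builds was at hand.

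PC1 of HS and normal was fitted with limma 3.58.1 in R 4.3.3 over all bins scored in the 4 libraries of a cultivar, with Benjamini-Hochberg adjustment, as the median of 21 fits with random digits within the rounding. Values per library were compared by exact two-sided permutation. TADs were assigned by their centre. The procedures were tested on simulated data.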

Additional observations from a re-analysis of the deposited data

How the results depend on the processing

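With 2 libraries a group no exact test over libraries could reach 0.05, scores carry 3 decimals, and the analysed tables hold no contacts by which a bin near 0 or a short TAD could be weighed. Of 116 settings tried over 20 results, 61 kept their direction and moved by less than the spread between replicates (counts by less than 1.5 times). Values that moved further follow, with the ranges without 1 library where those were wide. Their causes were not tested.

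Calls from the replicate mean gave 37 switching bins in Nip and 42 in 93-11, and a distance of at least 0.25 SD from 0 in every library 6 and 7. Leaving out 1 library gave 23 to 41 in Nip (41 without HS replicate 2). The change in A share turned to -0.095 percentage points in Nip and -0.090 in 93-11 with centred scores, and ranged from -0.286 to 1.24 in Nip without 1 library (-0.286 without HS replicate 1).

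Of the limma calls higher in HS, fits without random digits gave 69 in Nip and 53 in 93-11, and a prior variance with a trend 124 and 82. Of those lower in HS, these fits gave 49 and 47, and 98 and 58, and quantile normalization 14 in Nip. Without 1 library the calls higher in HS ranged from 0 to 41 in Nip and 0 to 10 in 93-11, and those lower from 0 to 39 and 0 to 3. With the replicate number as a block (replicate block), limma called 0 bins of chromosome 8 in either direction in either cultivar at an adjusted p under 0.05, while an unadjusted p under 0.05 was met by 144 higher and 103 lower bins of Nip and by 117 and 73 of 93-11. Libraries with the same number did not deviate together (correlation of deviations 0.018 in Nip and 0.014 in 93-11), so the numbers do not pair them.

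The change in TAD number was 138.5 in Nip for outermost TADs, -51 in Nip and -40 in 93-11 for TADs of at least 50 kb, and -2 to 213 in 93-11 without 1 library (-2 without HS replicate 2). In Nip the change in TAD size was -42.5 kb for outermost TADs and -47.4 kb as a mean, and the log2 ratio to the other chromosomes ranged from -0.028 (without HS replicate 1) to 0.269. In 93-11 that ratio ranged from -0.505 to -0.056 and the change in median TAD size from -31.25 to -6.25 kb without 1 library. Boundaries lost in Nip numbered 61 at the same position, 16 within 10 kb and 16 for outermost TADs, whose gained boundaries numbered 100. In 93-11 outermost TADs gave 35 lost and 56 gained. With the calls of a single library, A bins exceeded B bins by 2.31 to 2.56 genes in Nip and 2.98 to 3.22 in 93-11.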
